A study of Mus musculus with 50 samples.

Results

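Lightly methylated stretches of intermediate CpG density were examined in the soleus, a calf muscle rich in slow fibres, of mice with and without the DNA methyltransferase DNMT3A in muscle. A cluster is a run of CpGs no more than 100 bp apart. The clusters described here were chosen by 2 properties, 10 to 29 CpGs in the genomic run and a mean methylation level of 2 to 15% over the 21 WT samples. The rule gave 1838 of 51038 clusters, which was 12.3% of the 14946 clusters with 10 to 29 CpGs and 3.6% of all clusters. The WT level was therefore a criterion and not a finding.

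The assay was RRBS (reduced representation bisulfite sequencing), in which DNA is cut at CCGG by MspI and bisulfite turns unmethylated cytosines into thymines. All mice were on a C57BL/6 background, male or female, and homozygous for a floxed Dnmt3a allele. The mD3AKO mice also carried a Cre transgene under control of the promoter of muscle creatine kinase, a gene of skeletal muscle fibres and heart, so other cells of the muscle keep the intact gene. WT mice carried no Cre. Muscles were taken at rest, after time on a stationary treadmill, or once 10, 30 or 60 min had passed since a treadmill run. The labels do not give the age. The 21 WT samples numbered 5, 5, 5 and 6 over these conditions, and the 23 mD3AKO samples numbered 5, 5, 7 and 6.

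DNMT3A is a de novo methyltransferase that adds methyl groups to cytosines of CpGs on both unmethylated and partly methylated DNA. In mammalian genomes most CpGs are highly methylated, whereas dense CpG islands at promoters are mostly free of methylation. Stretches between these extremes, with few methylated copies among many unmethylated ones, often lie at island borders and at regulatory elements within or near genes.

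Depth was high over these clusters. A sample had 329534 to 1040728 methylation calls over the 1838 clusters, and the total was 12819404 to 41285655 over all CpGs. A cluster had a median of 225 calls in the median sample. The number in a single sample ranged from 8 to 4641. PCR copies are not told apart in these reads, so calls are not independent molecules. At the 520 clusters that were called for genotype and are not among those described here, the mean level was 33.9 to 40.4% in the WT samples and 19.4 to 27.3% in the mD3AKO samples. These were selected for that difference, and no sample lay with the other genotype.

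RRBS saw only part of each cluster. Of 31781 CpGs in the genomic runs, 5683 (17.9%) were measured. The number measured per cluster was 1 to 19 with a median of 3, and 25.4% of the clusters rested on 1 CpG. The runs had a median length of 477 bp and ranged from 145 to 1300 bp. The sequences below show what such a cluster looks like. They are the measured spans of leading clusters with 20 bases on either side, from the plus strand of GRCm38, with each measured CpG in capitals. The first 7 had lower levels in mD3AKO and the last had a higher mean that did not pass the test. The spans are chr7:3695036-3695103 (a coding exon of Tsen34 in the promoter of Mboat7), chr2:26507921-26507962 (an intron of Notch1), chr7:19269833-19269937 (an intron of Vasp), chr15:38384641-38384747 (intergenic, nearest to Klf10), chr19:45293679-45293880 (intergenic, nearest to Lbx1), chr17:47511367-47511443 (an intron of Ccnd3), chr17:5975778-5975880 (a coding exon of Synj2) and chr12:5119652-5119693 (an intron of Klhl29).
Mboat7: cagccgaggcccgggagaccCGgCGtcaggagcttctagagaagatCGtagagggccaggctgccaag
Notch1: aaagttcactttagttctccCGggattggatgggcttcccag
Vasp: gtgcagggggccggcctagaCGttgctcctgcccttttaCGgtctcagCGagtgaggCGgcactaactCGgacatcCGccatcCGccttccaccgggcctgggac
Klf10: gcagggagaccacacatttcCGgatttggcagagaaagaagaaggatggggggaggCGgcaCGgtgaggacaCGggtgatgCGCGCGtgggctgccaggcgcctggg
Lbx1: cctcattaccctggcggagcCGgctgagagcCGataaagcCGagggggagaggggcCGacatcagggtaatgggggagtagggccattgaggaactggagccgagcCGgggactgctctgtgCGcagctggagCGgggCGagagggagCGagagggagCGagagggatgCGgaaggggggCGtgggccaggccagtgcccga
Ccnd3: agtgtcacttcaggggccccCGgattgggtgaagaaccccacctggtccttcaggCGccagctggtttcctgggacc
Synj2: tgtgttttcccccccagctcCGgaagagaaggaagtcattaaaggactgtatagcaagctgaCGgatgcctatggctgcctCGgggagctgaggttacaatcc
Klhl29: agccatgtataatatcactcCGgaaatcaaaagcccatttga
The Lbx1 and Vasp spans held 12 and 7 measured CpGs, whereas Notch1 and Klhl29 were represented by a single CpG at a CCGG site.

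The clusters lay between the unmethylated and the more methylated clusters of the same CpG number in their distance to genes. A promoter in the deposited table covered 306 (16.6%), a gene body alone 732 (39.8%) and neither 800 (43.5%). Among all clusters of 10 to 29 CpGs these shares were 8.06%, 47.6% and 44.4%. The median distance to the nearest start of a protein-coding gene was 17348 bp, against 3595 bp for the 792 clusters with 10 to 29 CpGs and a WT level under 2% and 36409 bp for the 12316 above 15%. A start lay within 1000 bp of 12.9%, 38.8% and 2.56% of these classes. CpG islands held at least 1 measured CpG of 784 clusters (42.7%), 621 more touched only shores, the 2000 bp beside an island, and 433 lay in open sea. Of the measured CpGs, 40.7% were intergenic, 39.5% intronic, 6.76% in coding exons, 6.67% in untranslated regions and 6.42% in noncoding exons. A RefSeq promoter window (GRCm38), a short stretch around the start of a gene, held a measured CpG of 82 clusters.

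Sequence content was compared with the same classes. In 300 bp around the cluster centre, the GC box GGGCGG was found on either strand in 432 clusters (23.5%), against 29.8% of the clusters under 2%, 12.7% of those above 15% and 15.0% of all with 10 to 29 CpGs. The E-box CANNTG, the motif of myogenic factors among others, was in 78.1% against 80.7% of all. The cAMP response element TGACGTCA was in 22 clusters (1.20%), against 1.01% of the clusters under 2%, 0.430% of those above 15% and 0.555% of all. These motifs do not share a core, although CANNTG can overlap either of the other motifs at its ends. The CpG observed to expected ratio of the run had a median of 0.493, close to the 0.502 of all clusters of 10 to 29 CpGs and below the 0.552 of the clusters under 2% and the 0.4998 of those above 15%. The median density was 3.44 CpGs per 100 bp, against 4.03 in the clusters under 2% and 3.31 in those above 15%. A measured CpG fell in a repeat in 10.9% of the clusters, against 11.2% of those under 2% and 22.8% of those above 15%.

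A low mean did not describe every sample. The median SD over WT samples was 6.42 percentage points, almost as large as the median level of 7.07%. It was 3.34 times the SD that counting would give at these depths if all calls were independent, as a median over clusters. Calls from PCR copies or from CpGs of the same read are not independent, so this ratio does not measure differences between animals alone. The SD exceeded the cluster's own mean in 871 clusters (47.4%). At least 1 WT sample had no methylated call in 1453 clusters, while 594 had a WT sample above 30%. The widest spread among the clusters not called was at single CpGs. At Gnptab, whose product tags lysosomal enzymes, WT levels ran from 0 to 100% with a median of 0% and 15 of 21 samples at 0 (mean 9.78% ± 23.7, SD, n = 21). At Srrm2, a splicing factor gene, they ran from 0 to 88.9% with a median of 0%. At Gm20388 they ran from 0 to 100% with a median of 0%. The mD3AKO samples ran there from 0 to 58.1%, 0 to 39.7% and 0 to 37.5%. These 3 clusters had as few as 8, 8 and 11 calls in a sample.

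Methylation of the clusters was lower in mD3AKO as a group, with overlap between animals. The mean level over the 1838 clusters averaged 7.59% ± 1.12 in the 21 WT samples and 6.55% ± 0.886 in the 23 mD3AKO samples (SD over samples). WT samples ran from 5.97 to 9.54% with a median of 7.77%, and mD3AKO samples from 5.07 to 8.39% with a median of 6.41%. Thus 5 WT samples lay above every mD3AKO sample and 6 mD3AKO samples below every WT sample, while the others overlapped. Since the WT values chose the clusters, these levels carry no test. Over clusters the median difference, mD3AKO minus WT, was -0.861 percentage points, with 67.2% of clusters lower in mD3AKO. Over all 51038 clusters the median was -0.455 and 62.4% were lower. The mean level over all clusters averaged 47.6% in WT samples and 46.1% in mD3AKO samples. By the mean, the fall in points was thus larger over all clusters than over those described here. The soleus is a mixture of cells, and a lower level can come from fewer methylated copies in fibres or from a different share of cell types, which cannot be told apart here.

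**Figure D1:**
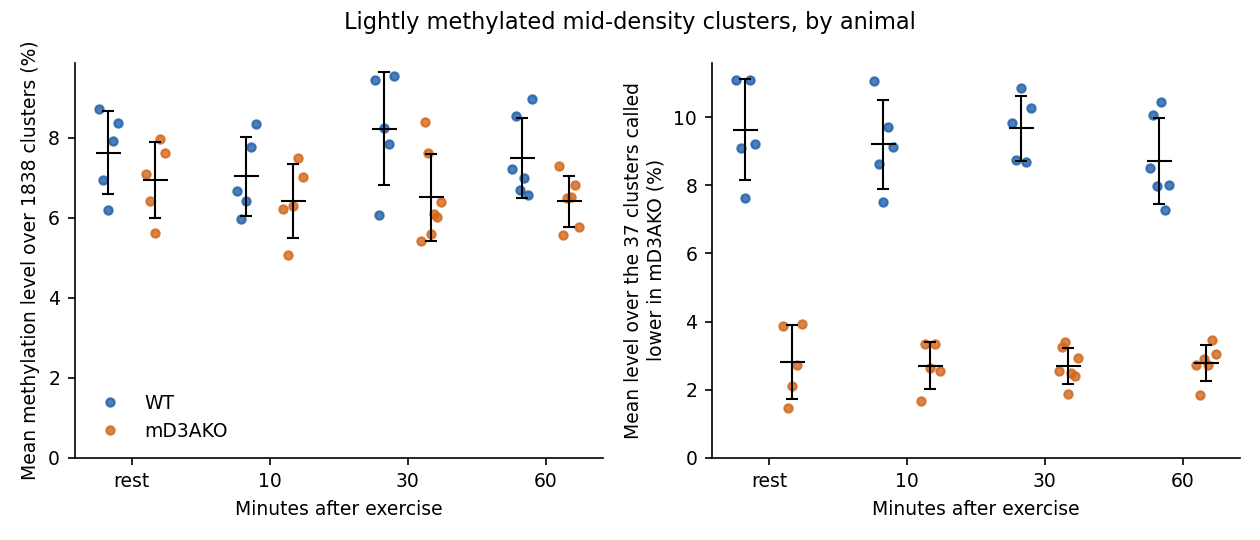
Mean methylation level (%) of each sample against minutes after exercise, over the 1838 clusters (left) and over the 37 of them called lower in mD3AKO (right), with WT in blue, mD3AKO in orange and bars for the group mean and SD. Genotypes overlap on the left (WT 5.97 to 9.54%, mD3AKO 5.07 to 8.39%), while on the right, where clusters were selected for the difference, WT samples lie at 7.26 to 11.1% and mD3AKO samples at 1.45 to 3.92%.

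The genotypes were compared cluster by cluster with a model of methylated and unmethylated counts over all 51038 clusters (edgeR quasi-likelihood F test, two-sided, Benjamini-Hochberg adjustment over all clusters). An adjusted p under 0.05 was a call. Levels fell in mD3AKO at 37 clusters (2.01%), against 1.09% of all clusters, and rose at 0, against 0.00588% of all clusters. At an unadjusted p under 0.05 there were 270 clusters (14.7%), of which 245 were lower and 25 higher, against 9.56% of all clusters. The likelihood ratio test of edgeR called 142 lower and 12 higher (8.38%, against 2.92% of all clusters), a quasi-binomial model 82 lower and 0 higher (4.46% against 2.68%), and limma on log2 ratios 73 lower and 0 higher (3.97% against 1.75%). In all, 35 of the 37 were called by each of these. WT samples entered both the choice and the comparison, so the choice was repeated in other animals. Clusters chosen on the WT samples at rest and 60 min (numbers 1 to 25) and compared at 10 and 30 min (numbers 26 to 50) numbered 1835. Their median difference was -0.906 points, against -0.479 over all clusters, and 207 (11.3%) had an unadjusted p under 0.05, against 6.79% of all. With the sets exchanged, the 1826 clusters had a median difference of -0.869 points, against -0.425, and 186 (10.2%) had an unadjusted p under 0.05, against 6.49%. The calls in these sets were 3 (0.163%, against 0.0647% of all) and 1 (0.0548%, against 0.0490%).

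**Figure D2:**
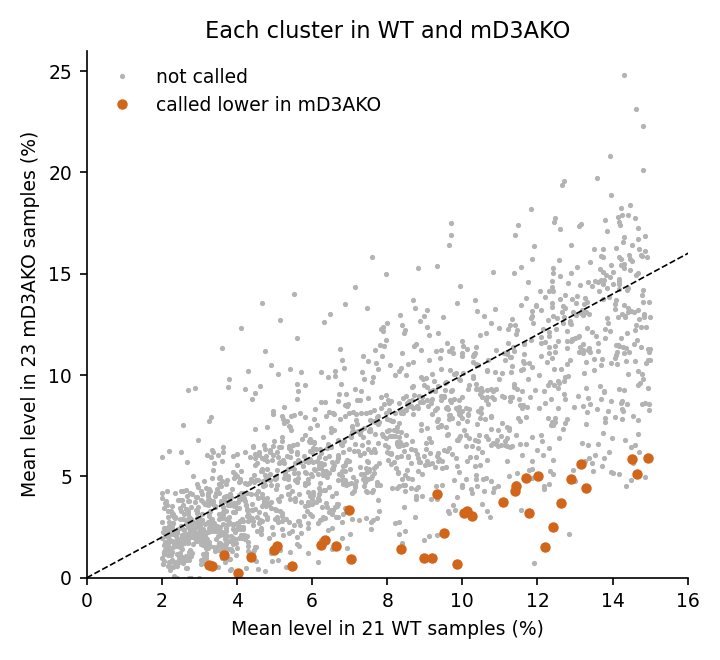
Mean level (%) of each of the 1838 clusters in 23 mD3AKO samples against that in 21 WT samples, with the line of equality dashed and the 37 called clusters in orange. The called clusters, selected for this difference, lie well under the line, at 0.223 to 5.91% in mD3AKO, and 75 clusters that were not called lie above 15% in mD3AKO.

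The 37 clusters had a median level of 9.85% in WT and 2.50% in mD3AKO, and the median ratio of mD3AKO to WT was 0.295. In 17 of them the mD3AKO mean was under 2%. In 19 of them all 23 mD3AKO samples lay below the WT mean, and in the others at least 20 did. In 0 of them were the genotypes fully separated. The 37 were selected for a genotype difference in the same samples, so these levels, the ratio and the counts of samples carry no further test. The same holds for the levels and samples of single called clusters below. The called clusters had more calls (median 403 against 222) and more measured CpGs (median 4 against 3) than those not called, and the part of this in the calls was not tested. Calls were made in 0.644% of the clusters with 1 measured CpG, 1.62% with 2, 2.12% with 3 or 4 and 4.00% with 5 or more. By WT level, the share was 0.977% at 2 to 5%, 1.91% at 5 to 10% and 3.31% at 10 to 15%. WT samples set these levels and also entered the comparison, so the rise with WT level is a description and carries no test. By place the share was 3.59% of clusters with a promoter (11 of 306), 1.91% of those in gene bodies alone (14 of 732) and 1.5% of the remainder (12 of 800).

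The lowest p belonged to a cluster of 3 measured CpGs in a coding exon of Tsen34, a subunit of the tRNA splicing endonuclease, which is also the promoter of Mboat7, a lysophospholipid acyltransferase gene (chr7:3695056-3695082). WT samples ranged from 1.31 to 23.7% with a median of 9.07%, and mD3AKO samples from 0 to 3.28% with a median of 0.319%. Most animals were apart, with 18 of 23 mD3AKO samples below every WT sample and 20 of 21 WT samples above every mD3AKO sample. The mean fell from 9.85% ± 5.79 (SD, n = 21) to 0.680% ± 0.832 (SD, n = 23), a log2 odds ratio of -4.31 ± 0.47 (SE, edgeR adjusted p = 1.49e-07). At the middle CpG of the 3, the mean was 20.2% in WT and 0.471% in mD3AKO.

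Called clusters within gene bodies included those of Notch1, Vasp, Ccnd3 and Synj2. At 1 CpG in an intron of Notch1, the receptor that holds muscle stem cells in reserve (listed in the table at its G, chr2:26507942), WT samples ran from 0 to 30.2% with a median of 5.65%, and mD3AKO samples from 0 to 7.00% with a median of 0%. Here 17 of 23 mD3AKO samples had no methylated call, as did 2 WT samples. The mean fell from 7.04% ± 6.80 (SD, n = 21) to 0.905% ± 2.02 (SD, n = 23; edgeR adjusted p = 0.000764). In an intronic island of Vasp, which promotes elongation of actin filaments (chr7:19269853-19269916, 7 CpGs), WT samples ran from 0 to 22.1% with a median of 9.48%, and mD3AKO samples from 0 to 5.20% with a median of 0.539%. The mean fell from 8.99% ± 6.74 to 0.975% ± 1.33 (SD, n = 21 and 23; edgeR adjusted p = 0.000818), and 14 WT samples lay above every mD3AKO sample. At Ccnd3, the gene of cyclin D3 (intron, chr17:47511387-47511422), 15 of 23 mD3AKO samples had no methylated call, and the mean fell from 5.48% ± 6.04 to 0.568% ± 1.10 (edgeR adjusted p = 0.00299). In a coding exon of Synj2, an inositol phosphatase gene, it fell from 12.6% ± 5.77 to 3.67% ± 3.23 (edgeR adjusted p = 0.0057). Groups overlapped at all of these.

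Several called clusters lay between genes. An island 83955 bp upstream of Klf10, a transcription factor induced by TGF-beta, fell from a mean of 3.34% ± 2.45 to 0.595% ± 0.874 (SD, n = 21 and 23, edgeR adjusted p = 0.00123). Its WT samples ran from 0.149 to 9.76% and its mD3AKO samples from 0 to 2.97%. An island 57887 bp upstream of Lbx1, a homeobox gene of migrating limb muscle precursors, had WT samples of 2.96 to 27.5% with a median of 10.6% and mD3AKO samples of 0.701 to 11.1% with a median of 3.68%. The mean fell from 11.4% ± 5.58 to 4.28% ± 2.47 (edgeR adjusted p = 0.00151). The cluster of the same class within Lbx1 itself (11 measured CpGs) had 7.29% ± 3.22 in WT and 7.30% ± 3.53 in mD3AKO. A cluster 3656 bp upstream of Gadd45g, a growth arrest gene, had WT samples of 5.28 to 22.0% with a median of 13.4% and mD3AKO samples of 0.775 to 12.6% with a median of 5.33%. Its mean fell from 13.2% ± 4.29 to 5.62% ± 2.89 (edgeR adjusted p = 0.00168). Clusters nearest to 1600014C23Rik, Plxnc1, a semaphorin receptor gene, and Selenon, a gene of congenital myopathy, fell by 7.00, 6.83 and 7.20 points.

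**Figure D3:**
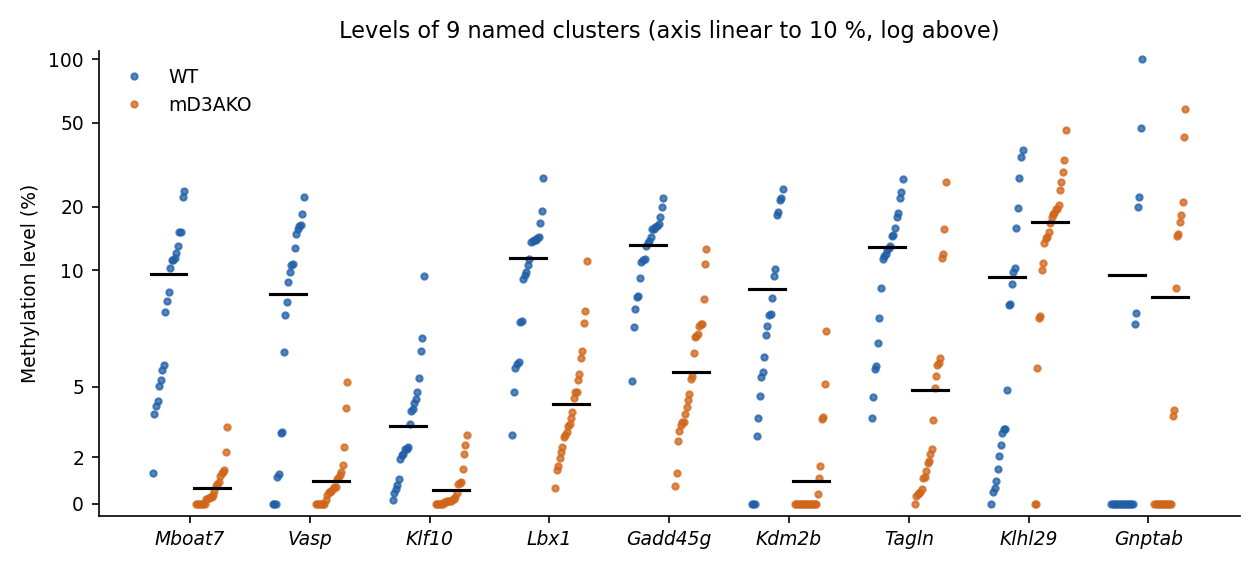
Methylation level (%) of every sample at 9 named clusters, with WT in blue, mD3AKO in orange, samples in ascending order within a genotype and black lines at the means, on an axis that is linear to 10% and logarithmic above. From Mboat7 to Tagln, clusters selected for the difference, the mD3AKO samples lie mostly below the WT samples, at Klhl29 the mD3AKO mean is higher (16.9% against 9.71%), and at Gnptab 15 WT and 13 mD3AKO samples lie at 0.

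Promoters, as the deposited table assigns them, held 11 of the 37. At Kdm2b, which encodes a histone demethylase that binds unmethylated CpGs, 2 CpGs by the start (chr5:122989831-122989860) had WT levels of 0 to 24.1% with a median of 7.62% and mD3AKO levels of 0 to 7.39% with a median of 0%. The mean fell from 9.18% ± 7.42 (SD, n = 21) to 1.00% ± 2.01 (SD, n = 23; edgeR adjusted p = 0.00163), and 16 mD3AKO samples had no methylated call. At Rapgef3, which encodes a cAMP-activated exchange factor of Rap, it fell from 14.6% ± 7.00 to 5.14% ± 4.41 (edgeR adjusted p = 0.00226). At Tagln, the smooth muscle actin-binding transgelin (6 CpGs, chr9:45935958-45936076), WT samples ran from 3.66 to 27.2% and mD3AKO samples from 0 to 26.3%, with medians of 12.5% and 2.15%. Its mean fell from 12.9% ± 6.33 to 4.85% ± 6.27 (edgeR adjusted p = 0.00267), and 1 mD3AKO sample at 26.3% was almost as high as the highest WT sample. The others were Tril (a co-receptor of Toll-like receptor 4), Hspa12b (a distant member of the HSP70 family), Atp13a3 (a polyamine transporter), Adamts5 (a protease of the extracellular matrix), Aldh2 (mitochondrial aldehyde dehydrogenase), B230217C12Rik and Zfp710, which fell by 2.52 to 6.95 points. The clusters of Hspa12b and Zfp710 and one 10106 bp upstream of the Axin2 start used by GENCODE were those of the 37 with a CpG in a RefSeq promoter window.

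The remaining called clusters lay in or near genes of several kinds. Those of adhesion and cytoskeleton were Ank2 (ankyrin B), Tns1 (tensin), Dtna (dystrobrevin alpha) and Dchs1 (a protocadherin), which fell by 2.60, 6.88, 8.63 and 8.87 points. Those of transcription and chromatin were Chd1 (a chromatin remodeller), Klf3, Zbtb34, Ints3 (a subunit of Integrator) and Mamstr, a coactivator of the muscle factor MEF2. At the single measured CpG of Mamstr the mean fell from 12.2% ± 12.9 (SD, n = 21) to 1.52% ± 2.86 (SD, n = 23), the largest difference of the 37 at 10.7 points, with an edgeR adjusted p of 0.0406. At Klf3 (4 CpGs of an intron) it fell from 14.9% ± 11.3 to 5.91% ± 3.5, with an edgeR adjusted p of 0.0399, all 23 mD3AKO samples being below the WT mean. Those of signalling were Axin2 (a Wnt feedback gene), Gng7 (a G protein subunit), Stim2 (a calcium sensor) and Sema3a (a secreted guidance factor), with falls of 5.06 to 9.90 points. Tinagl1, a matrix protein gene, and Exog, a mitochondrial nuclease gene, were the nearest genes of another pair and fell by 4.47 and 8.56 points.

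The single CpGs of a cluster were unequal. Among the 602 clusters with at least 4 measured CpGs, the range of WT means within the cluster had a median of 9.47 points and exceeded 15 points in 149. Of the 5683 CpGs, 812 (14.3%) had a WT level under 2% and 588 (10.3%) one above 15%. In the Lbx1-upstream island, the highest CpG had 32.2% in WT and 16.9% in mD3AKO, and its neighbour on the left 3.68% and 1.9%. In Vasp, the 4 CpGs on the right had 10.8 to 15.8% in WT and the 3 on the left 1.60 to 3.92%, while all 7 had 0.171 to 2.53% in mD3AKO. In the Gadd45g cluster the outermost CpGs were the highest, with 20.8% and 19.9% in WT against 8.77% and 8.91% in mD3AKO. All 12 CpGs near Lbx1, 7 in Vasp and 7 near Gadd45g were lower in mD3AKO, and 6 of 7 near Klf10, where the exception had 0.132% in WT and 0.478% in mD3AKO. These clusters were called on the sum of the same CpGs in the same samples, so the agreement of their CpGs carries no test.

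**Figure D4:**
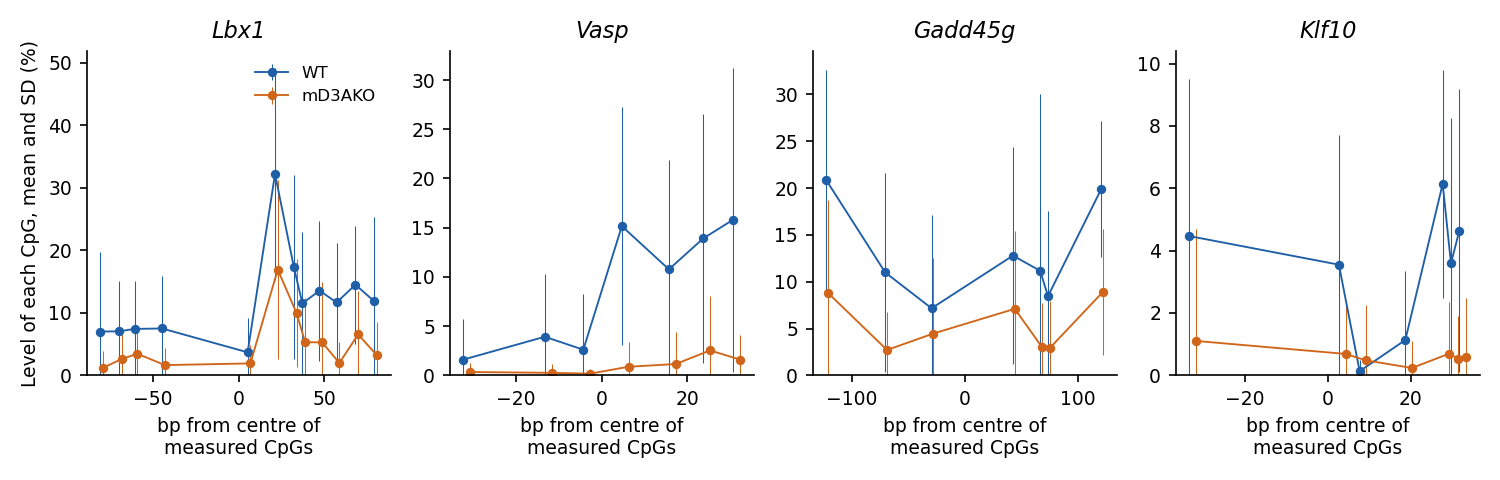
Mean level (%) and SD of each measured CpG in WT (blue, n = 21) and mD3AKO (orange, n = 23) at 4 clusters called lower on these same samples, against its distance in bp from the centre of the measured span. The mD3AKO line lies below the WT line at every CpG but 1, that of Klf10 with 0.132% in WT, and WT levels differ between neighbouring CpGs, from 3.68 to 32.2% near Lbx1.

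CpGs at the ends of the runs were more methylated than those inside. The outer 3 CpGs of each end (1310 CpGs) had 8.37% ± 1.37 in WT and 7.12% ± 0.936 in mD3AKO, a difference of -1.25 points, and the other 4373 CpGs had 7.21% ± 0.900 and 6.21% ± 0.795, a difference of -1.0 (SD over samples, n = 21 and 23). By the base after the CpG, counted on both strands, CGC had the highest level and the largest difference, with 8.68% ± 0.754 in WT and 7.16% ± 0.734 in mD3AKO (-1.52 points). CGT had 7.14% and 5.93% (-1.21), CGA 6.97% and 6.03% (-0.938) and CGG 7.26% and 6.37% (-0.889). CGC was above CGG in 44 of 44 samples. Most CGG positions were part of the MspI site CCGG, and without these CGG had 7.67% and 6.45% (-1.23), so that the extra difference at CGC over CGG went from -0.627 to -0.288 points. Over all CpGs of the table the order was another, with the lowest WT level at CGC (15.9%) and the highest at CGG (30.4%). By feature, the difference was -1.56 points at CpGs in untranslated regions (6.46% to 4.90%), where all 23 mD3AKO samples lay below the WT mean. It was -1.13 in introns, -1.04 in coding exons, -0.962 between genes and -0.763 in noncoding exons. These levels rest on clusters chosen by WT level and are descriptions.

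No cluster passed the test as higher in mD3AKO. The 5 with the lowest p among those with a positive effect each rested on 1 CpG. At Klhl29 WT samples averaged 9.71% ± 11.2 and mD3AKO samples 16.9% ± 10.5 (SD, n = 21 and 23), with 18 of 23 mD3AKO samples above the WT mean (log2 odds ratio 1.52 ± 0.53 SE, edgeR adjusted p = 0.223). WT samples ran from 0 to 37.2% and mD3AKO samples from 0 to 46.2%, with medians of 4.89% and 16.7%. The others were Tnfrsf11a (the receptor RANK, 4.90% against 10.5%), Rnf144b (a ubiquitin ligase gene, 7.61% against 15.8%), Ank (a pyrophosphate transporter gene, 3.31% against 7.94%) and Chrm1 (a muscarinic receptor, 6.33% against 12.6%), with edgeR adjusted p of 0.247 to 0.334. The likelihood ratio test called all 5.

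On gene lists of muscle, counted by the promoter or gene body of a cluster, 0 of the clusters described here were called. Mamstr and Dtna are not on these lists, and the called cluster upstream of Lbx1 has no such assignment. The clusters described here were 12 of the 131 clusters at myogenic and muscle regulators (9.16%), 5 of 157 at sarcomere, chaperone and cytoskeleton genes (3.18%), 5 of 68 at calcium handling and ion channel genes (7.35%), 7 of 132 at energy metabolism genes (5.30%) and 6 of 67 at neuromuscular junction genes (8.96%), beside 3.6% of all clusters. Of the 12 at myogenic regulators, 0 were called and 7 had a lower mean in mD3AKO. Mef2d had 8.43% in WT and 3.5% in mD3AKO and Pax7, the marker of satellite cells, 14.5% and 6.46% (edgeR adjusted p = 0.118 and 0.229). The study reported significantly less methylation at a Pax7 promoter region in mD3AKO soleus. Its pyrosequencing of other mice found lower levels there in quadriceps and EDL muscle too. For promoters, the study summed counts over a wider region than a cluster and used its own edgeR procedure. The Pax7 cluster here differs in unit and test, so its adjusted p does not speak against that result. Of 5 clusters at sarcomere, chaperone and cytoskeleton genes, 0 were called, and the Acta1 promoter had 11.5% in WT and 17.4% in mD3AKO. The lists of calcium handling and ion channels (5 clusters), energy metabolism (7) and the neuromuscular junction (6) had 0 calls each. Clusters of any CpG number and WT level were also counted on these lists. In the order above, 10 of 131, 4 of 157, 1 of 68, 4 of 132 and 1 of 67 were called. Of 10 clusters at Wnt, FGF, BMP, hedgehog and Notch genes, 1 fell (Notch1). Of 63 at developmental transcription factors, such as Hox, Pax and Fox genes, 1 fell (Klf3), and their median difference was -0.351 points. Of 5 at the DNA methylation machinery, 1 fell (Kdm2b), and the cluster within Dnmt3a had 4.04% in WT and 1.94% in mD3AKO (edgeR adjusted p = 0.693), which says nothing of the deletion itself. These shares are to be read beside the 1.09% of all clusters, and each list is small. Cell type markers held 3 clusters of muscle fibre genes, 2 of satellite cells and 1 of smooth muscle, with 0 calls. Over clusters of any CpG number and WT level, the calls at these markers were 0 of 36, 4 of 11 and 0 of 4. Endothelial, fibro-adipogenic, macrophage, Schwann cell and adipocyte markers held 0 of the clusters described here, so the cells behind the levels cannot be named from them.

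Time after exercise gave no call at these clusters. In WT the mean level over the clusters was 7.63% ± 1.05 at rest (n = 5), with 7.03% ± 0.981, 8.22% ± 1.42 and 7.49% ± 1.01 at the later times (n = 5, 5 and 6). In mD3AKO it was 6.94% ± 0.950 (n = 5), 6.41% ± 0.919 (n = 5), 6.50% ± 1.09 (n = 7) and 6.41% ± 0.645 (n = 6). The samples of each time overlapped with those at rest in both genotypes. The test of any time difference called 0 clusters, against 0% of all clusters, with 56 (3.05%) at an unadjusted p under 0.05 against 2.86% of all. The interaction of genotype with time called 0, against 0% of all, with 54 (2.94%) at an unadjusted p under 0.05 against 2.74%. Each of the 6 comparisons of a time with rest within a genotype called 0, against 0% of all, with 53 to 84 clusters (2.88 to 4.57%) at an unadjusted p under 0.05, against 2.80 to 4.29% of all (edgeR quasi-likelihood). These shares of all clusters are below the 0.05 that tests without any effect would give. The test was thus cautious here, and 0 calls do not show that exercise left the clusters unchanged. The quasi-binomial model called 0 for both, and the likelihood ratio test 33 for time (1.80%, against 0.768% of all) and 29 for interaction (1.58% against 0.819%).

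The lowest time p was at Tnk2, a tyrosine kinase gene, with WT means of 1.54, 0, 11.1 and 9.94% and mD3AKO means of 0.952, 0.157, 6.30 and 4.43% at rest, 10, 30 and 60 min (edgeR adjusted p = 1). This single CpG had 12 of 21 WT samples at 0. Slc6a5, a glycine transporter gene, had WT means of 0.579, 0.815, 4.28 and 3.68% and mD3AKO means of 2.45, 0.431, 2.90 and 1.11%. Rassf8 had WT means of 0.541, 0.168, 3.74 and 4.19% and mD3AKO means of 1.31, 0, 1.74 and 6.63%. The lowest interaction p was at Ptp4a3, a phosphatase gene, with WT means of 17.6, 2.91, 22.9 and 3.11% and mD3AKO means of 4.93, 5.00, 4.04 and 6.37% (edgeR adjusted p = 1). Hspa12b and Nkx3-2 followed. At Hspa12b the mD3AKO means were 0, 3.30, 0.292 and 0.916%, and the WT means were 2.73 to 5.39%. At Nkx3-2, a homeobox gene, WT means were 0.968, 6.49, 4.10 and 3.37% and mD3AKO means 10.1, 0.476, 1.88 and 6.79%.

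The median genotype difference was negative at each time. From rest to 10, 30 and 60 min, the median over the clusters was -0.585, -0.694, -1.36 and -1.07 points, against -0.241, -0.266, -0.702 and -0.539 over all clusters. Within a single time 0 of these clusters were called, against 0.00588%, 0.0137%, 0.0176% and 0.00784% of all clusters in the same order, and 101, 122, 144 and 114 (5.50, 6.64, 7.83 and 6.20%) had an unadjusted p under 0.05, against 4.69, 5.12, 5.14 and 5.23% of all (edgeR). The 37 called clusters were selected on the mean over these 4 times in the same samples. Their differences at each time therefore carry no test. Of the 37, 36 had a lower mean in mD3AKO at all 4 times, with medians of -6.29, -5.37, -6.87 and -4.98 points. The exception was Hspa12b at 10 min, with 2.73% ± 3.44 in WT and 3.30% ± 2.31 in mD3AKO (n = 5 each).

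Compared with other classes, calls at these clusters were neither the most nor the least frequent. Of the clusters with 10 to 29 CpGs, 0 of 792 under 2%, 68 of 2355 (2.89%) between 15 and 40% and 90 of 9961 (0.904%) above 40% were called lower. At the same WT level of 2 to 15%, 16 of 1387 clusters (1.15%) with 1 to 9 CpGs and 136 of 2352 (5.78%) with 30 or more were called lower. The median differences in these last classes were -0.918 and -0.886 points, close to the -0.861 of the clusters described here. Among clusters with 10 to 29 CpGs the median was 0.025 points under 2%, -2.46 between 15 and 40% and -1.18 above 40%. WT samples set these classes and entered the comparison, so the shares by WT level are descriptions. The clusters with 30 or more CpGs had a median of 557 calls per sample and 6 measured CpGs, against 225 and 3, and 119 calls and 1 CpG for those with 1 to 9. The WT SD had medians of 3.64, 6.42 and 8.35 points in the same order. The part of depth and spread in the shares called was not tested.

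**Figure D5:**
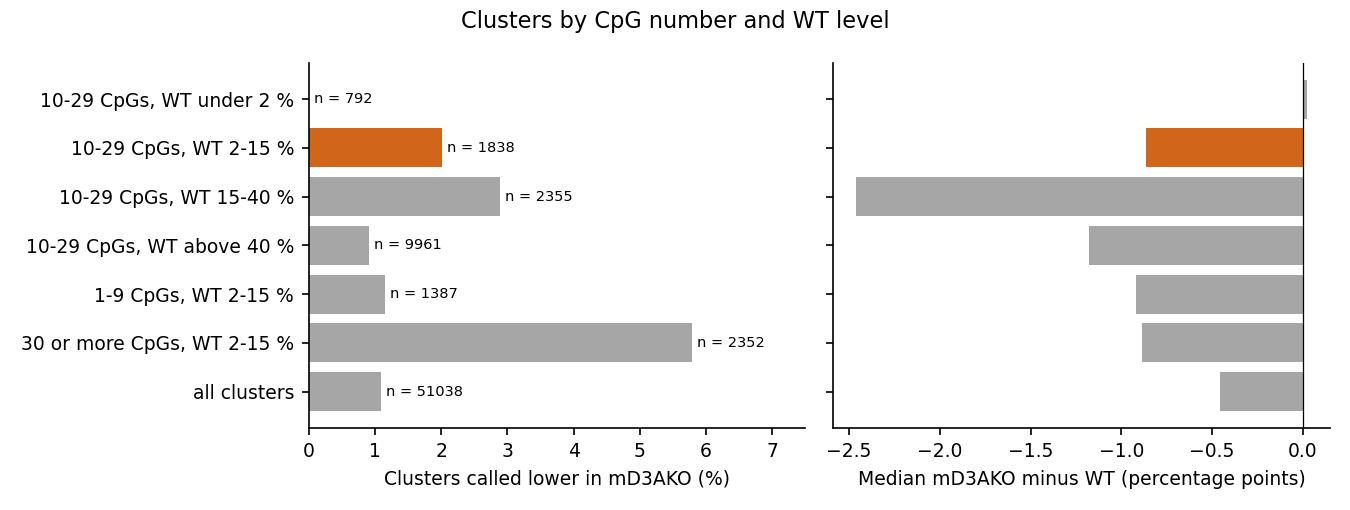
Share of clusters called lower in mD3AKO (left, %) and median difference mD3AKO minus WT (right, percentage points) for clusters grouped by CpG number and WT level, with the clusters described here in orange. At a WT level of 2 to 15% the shares are 1.15, 2.01 and 5.78% with rising CpG number while the median differences are -0.918, -0.861 and -0.886 points.

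The limits of the WT level passed through a continuum. Just inside the lower limit were clusters nearest to Gtf2i (2.00% in WT, 4.20% in mD3AKO) and in Rnf122 (2.01% and 5.98%), and just outside it those of Psd4 (2.00% and 1.97%) and Rbm12b2 (1.99% and 1.61%). Just inside the upper limit were Xylt1 (15.0% and 11.3%) and Fam110a (15.0% and 12.8%), and just outside it Barhl1 (15.0% and 13.2%) and 1700001O22Rik (15.1% and 4.47%).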

How the data were processed

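RRBS of 50 soleus samples was deposited, of which 44 had counts and a group and 6 were not used here. One of the latter had labels that disagree on its genotype. Per the labels and the methods of the study, the authors trimmed reads with Trim Galore 0.4.0 and cutadapt 1.9.1, aligned them to mm10 with Bismark 0.18.1, added the strands of each CpG and kept autosomal CpGs that no sample covered by fewer than 8 reads. The deposited table holds counts of calls per CpG, methylated and unmethylated, with no normalization. The deposited clusters, CpG numbers and gene assignments were used. Of 205304 CpGs, 205303 lay on a CG of GRCm38, and 13708 of 13722 gene identifiers matched a symbol of GENCODE M21. Islands were called in windows of 200 bp (GC fraction 0.5, observed to expected ratio 0.6).

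A level is methylated over all calls of a cluster, in percent. The edgeR 4.0.16 model had 1 coefficient for each sample and a methylated fraction per group of genotype and time, a common dispersion over all clusters and the quasi-likelihood F test with an abundance trend. The genotype effect is the mean over 4 times, as a log2 odds ratio. Labels give no litter or culture. Each animal gave a single library, so p-values rest on a spread that holds differences between animals and between libraries together. Alternatives were the likelihood ratio test, a quasi-binomial model (pseudocount 0.5), limma 3.58.1 (pseudocount 1), a coverage minimum of 20, sex as covariate, the sample sets numbered 1 to 25 and 26 to 50, other limits and leaving out each sample. The models were run on simulated counts that held known falls in mD3AKO but no rises and no effects of time. This says nothing of how well rises or time effects would be found. The clusters, gene lists and tests were chosen with earlier results of these data known. Named were the 20 called clusters with the lowest p, the 5 with the lowest p among higher ones, 3 each for time, interaction and WT SD, those beside the limits, and called clusters of the gene lists. Other called clusters were named after their values were seen, and some clusters that the rule names are not reported here. Each cluster takes the name of its promoter gene, else its gene body, else the nearest gene, and assignment to a gene says nothing of its regulation.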

Additional observations from a re-analysis of the deposited data

Results flagged for a closer look

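Within a genotype and time, 31 values stood apart from the others of their group, by a gap larger than Dixon's critical value. They came from 174 groups over 22 measures, where chance gives about 8.7 if values are normal, and 30 of them were the highest of their group. None was in the mean or median level over the 1838 clusters or in the share of clusters at 0. In some groups all other samples were at 0, as at Notch1 at 10 min in mD3AKO (0.50% beside 0%). The excess over 8.7 therefore cannot be read as a count of unusual animals.

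In mD3AKO each was the highest sample of its group. At Mboat7 mD3AKO animal 39 (10 min) had 2.22%. At Notch1 animal 34 (10 min) had 0.50%, animal 29 (30 min) 2.38% and animal 10 (60 min) 6.67%. At Vasp animal 34 (10 min) had 0.633% and animal 27 (30 min) 4.09%. At Klf10 animal 21 (rest) had 2.97% and animal 27 (30 min) 1.5%. At Lbx1 and Tril animal 33 (30 min) had 11.1% and 4.94%. At Kdm2b animal 24 (rest) had 7.39%, animal 45 (10 min) 5.14% and animal 43 (30 min) 3.61%. At Tagln animal 24 (rest) had 26.3%, and at Rapgef3 animal 45 (10 min) had 22.0%. At Ccnd3 animal 34 (10 min) had 0.791%, animal 43 (30 min) 3.08% and animal 23 (60 min) 0.408%. At Chd1 animal 2 (rest) had 3.35%, at Plxnc1 animal 28 (10 min) 16.1% and at Ank2 animal 41 (30 min) 2.73%. At Atp13a3 animal 29 (30 min) had 1.59% and animal 3 (60 min) 2.25%.

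In WT, animal 22 (60 min) had 22.1% at Vasp, animal 38 (30 min) 27.5% at Lbx1 and animal 25 (60 min) 21.4% at Kdm2b and 25.8% at Plxnc1. Animal 35 (10 min) had 12.5% at Ccnd3, animal 44 (30 min) 13.4% at Chd1 and animal 49 (10 min) 8.63% at Atp13a3. The 1 low value was WT animal 20 at rest, with 5.97% at Lbx1.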

How the results depend on the processing

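No paired analysis was possible because every animal has its own number, so the groups compared share no replicate numbers. The count of 37 clusters called for genotype was 154 with the likelihood ratio test (142 lower, 12 higher), 82 with the quasi-binomial model and 73 with limma. It was 0, 0, 0 and 0 at rest, 10, 30 and 60 min alone. It was 1 in samples numbered 1 to 25 (0.0544%, against 0.0490% of all clusters) and 3 in those numbered 26 to 50 (0.163% against 0.0647%). All of these had fewer animals. Choosing clusters in one set and comparing in the other gave 3 and 1. The number of clusters was 940 with at least 3 measured CpGs, a limit added after the data were seen, and 1208 at a coverage minimum of 20. At that minimum the calls were 34, of which 26 were among the 37, and 1.53% of all clusters kept were called. Sex as covariate gave 37 (2.01%, against 1.11% of all clusters). The quasi-likelihood of edgeR 4, added after the data were seen, gave 54 (2.94% against 1.52%). Unweighted CpG means gave 40 (2.17%), a WT level of 3 to 12% gave 27 (2.14%) and 12 to 25 CpGs gave 26 (1.96%), each against 1.09%. The counts under these 5 settings lay within 1.5 times of 37. For time and interaction the likelihood ratio test gave 33 and 29 calls in place of 0. The extra difference at CGC over CGG was -0.288 points without CCGG. Leaving out 1 sample gave 67 to 93 calls in the quasi-binomial model and median differences of -0.963 to -0.822 points. The share of all clusters called in these fits was not computed.

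Of the named clusters, the log2 odds ratio changed sign within a single time at Hspa12b (0.90 at 10 min), Klhl29 (-0.23 at 10 min) and Tnfrsf11a (-1.31 at 30 min). At a coverage minimum of 20 the adjusted p was 0.068 at Lbx1, 0.19 at Tril, 0.0961 at Ank2 and 0.202 at Atp13a3. Of 1100 fits of the named clusters that left out 1 sample (quasi-binomial), 1056 kept their side of the threshold. The others were Atp13a3 in 31 fits (adjusted p 0.0513 to 0.218), Hspa12b in 11 (0.0503 to 0.0873) and Klhl29, which passed it without WT animal 25 at 60 min or WT animal 49 at 10 min (0.0407 and 0.05). The cause of these changes was not tested. The lowest depth was 8 calls of a cluster in a sample.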

Other observations

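The sexes were described apart from the genotypes. The mean level over the 1838 clusters was 7.93% ± 1.26 in WT females (n = 10) and 7.28% ± 0.922 in WT males (n = 11), and 6.90% ± 1.10 in mD3AKO females (n = 11) and 6.24% ± 0.487 in mD3AKO males (n = 12), where ± is the SD. The median difference between genotypes was -1.04 points in females and -0.923 in males, and the sexes were not tested against each other.

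Among clusters that missed the threshold, Dnmt1, the gene of the maintenance methyltransferase, had 3.35% in WT and 0.620% in mD3AKO (edgeR adjusted p = 0.375), and Six4, a homeobox gene of early muscle, had 9.36% and 12.1% (edgeR adjusted p = 0.429).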
